A study of Mus musculus with 16 samples.

Results

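The cell cycle and DNA replication genes of the mouse cochlea were examined as 42 named genes, 22 with roles in mitosis and 20 with roles in DNA replication and entry into S phase. A member was read from every probe of the array whose only annotated gene symbol is that gene, and the probe with the highest mean over all arrays stands for it. Of the 42 members, 41 have such a probe, among 18193 genes with one on the array. Ccnb1 has none. The values come from the left cochlea, taken whole, of 16 male DBA/2J mice, an inbred strain with progressive hearing loss, and each array holds 1 cochlea of 1 mouse. The 4 weeks group was 5 mice at 4 weeks of age with no injection. Control stands for 5 mice aged 12 weeks after 8 weeks of daily subcutaneous vehicle, 0.1 M sodium bicarbonate, and the M+V group was 6 mice of the same age given L-methionine (MET, 500 mg/kg) together with valproic acid (VPA, 300 mg/kg) in that vehicle. By the labels, M+V and control thus differ in treatment alone, although tissue content and a technical split also vary among their arrays. A difference from 4 weeks holds age, injections and that technical split together. The comparisons asked whether genes of dividing cells differed with age or with the 2 agents, and whether mitotic and replication genes did so alike.

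A dividing cell first licenses its replication origins by loading the Mcm helicase, then copies its DNA with polymerases held by the clamp Pcna and with nucleotides made by ribonucleotide reductase, and later builds a spindle under the mitotic cyclins and kinases. Transcription of the replication genes is driven by E2F factors at the passage into S phase, and that of the mitotic genes peaks later, through the CHR element bound by the MuvB complex. The sensory and supporting cells of the mature mammalian cochlea do not divide, but the bone around it holds marrow, in which the precursors of red cells, B cells and neutrophils proliferate. MET is the precursor of S-adenosylmethionine, from which methyl groups are passed on, while VPA is an inhibitor of histone deacetylases.

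The promoters of the 2 mitotic and the 2 replication members with the highest mean signal and an entry in the RefSeq promoter table (build GRCm38.p6) are shown because the motifs differed in frequency between the 2 kinds of gene over all members with an entry. Each is 300 bases on the minus strand, from 250 bases before the gene's start to 50 after it, at chr7:135716330-135716629 for Mki67, chr4:118437294-118437593 for Cdc20, chr2:132253131-132253430 for Pcna and chr5:138171834-138172133 for Mcm7, the first of 2 entries. Capitals mark matches, on either strand, to the CHR core TTTGAA, to the CCAAT box and to an E2F core (any of TTGGCGC or TTCCCGC or TTCGCGC or TTGCCGC).
Mki67: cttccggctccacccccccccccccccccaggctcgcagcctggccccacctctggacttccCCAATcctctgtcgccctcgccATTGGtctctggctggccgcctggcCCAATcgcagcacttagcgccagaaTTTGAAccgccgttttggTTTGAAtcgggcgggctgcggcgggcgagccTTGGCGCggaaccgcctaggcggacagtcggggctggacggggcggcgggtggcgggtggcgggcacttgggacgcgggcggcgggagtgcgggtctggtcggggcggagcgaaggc
Cdc20: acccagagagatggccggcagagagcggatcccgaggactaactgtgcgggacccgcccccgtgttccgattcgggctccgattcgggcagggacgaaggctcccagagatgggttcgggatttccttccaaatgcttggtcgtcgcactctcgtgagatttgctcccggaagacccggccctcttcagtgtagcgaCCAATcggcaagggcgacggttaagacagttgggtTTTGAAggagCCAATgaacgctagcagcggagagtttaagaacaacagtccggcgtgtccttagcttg
Pcna: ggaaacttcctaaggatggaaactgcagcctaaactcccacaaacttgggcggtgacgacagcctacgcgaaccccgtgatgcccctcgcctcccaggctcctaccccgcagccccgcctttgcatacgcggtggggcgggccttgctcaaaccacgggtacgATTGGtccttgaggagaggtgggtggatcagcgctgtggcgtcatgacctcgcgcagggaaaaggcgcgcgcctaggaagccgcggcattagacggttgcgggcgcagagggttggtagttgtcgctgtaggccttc
Mcm7: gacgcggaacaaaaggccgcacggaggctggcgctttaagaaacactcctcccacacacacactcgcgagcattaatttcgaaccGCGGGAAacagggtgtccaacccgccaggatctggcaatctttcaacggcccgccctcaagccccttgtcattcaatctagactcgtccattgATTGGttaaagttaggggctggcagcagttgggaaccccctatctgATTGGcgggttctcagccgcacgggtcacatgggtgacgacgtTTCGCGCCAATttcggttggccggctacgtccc
The Mki67 window holds 2 CHR cores and 1 E2F core, and the Cdc20 window a CHR core that begins at base 233 and lies between CCAAT boxes. The Mcm7 window holds 3 E2F matches, of which those from base 268 and base 271 overlap each other and a CCAAT box, and no CHR core. Pcna has only a CCAAT box among these letters. Over the 34 members with an entry, the CHR core was present in 13 of 18 mitotic promoters (72.2%) and in 1 of 16 replication promoters (6.25%), that of Mcm2, beside 18.1% of the 27025 promoters in the table. An E2F core was present in 3 of 18 mitotic promoters (16.7%), in 11 of 16 replication promoters (68.8%) and in 9.69% of all promoters. CCAAT boxes stood in 16 of 18 (88.9%), 8 of 16 and 37.9%. A match is a description of letters and does not show binding.

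Signals are on the log2 scale after the authors' quantile normalization, so a difference of 1 is a 2-fold difference, and levels of different probes are not compared. The hybridisation control bioB, a bacterial transcript that is added to the sample, was high (9.02 to 9.74) in 8 arrays, all 5 at 4 weeks with control 1 and M+V 1 and 2, and low (5.98 to 6.36) in the other 8. The comparisons with 4 weeks therefore also hold this split, with control 1 and M+V 1 and 2 as the older arrays at the high level. With the bioB level as a block, the medians for control against 4 weeks were -0.10 (mitotic members) and -0.08 (replication members), of opposite sign to those without it, and no member passed. Of the cell type markers, 9 of 10 genes of the cochlear duct and lateral wall and 2 of 5 hair cell genes passed the filter on dim probes. Of the M+V arrays, M+V 1 and 3 differ from the rest in several lists, and M+V 2 lay at the low end of others. In M+V 1, 12 of 13 erythroid precursor genes and 10 of 11 B cell precursor genes had their lowest signal of all 16 arrays, and Klf1, the master regulator of red cell genes, had a signal of 2.88 against 11.20 in M+V 3. M+V 3 had the lowest signal of 28 of the 41 members, a count with no share over all probes beside it. M+V 1 was also the lowest array in the scores (mean log2 signal of a list, centred over 16 arrays) of oligodendrocyte (-1.27) and of osteoblast and cartilage genes (-1.08) and the highest in mature neutrophil genes (0.74), and M+V 3 was the highest in hair cell genes (0.69). M+V 2 was the lowest of all 16 arrays in the scores of neuron (-1.18) and Schwann cell genes (-1.42), and M+V 1 in that of cochlear duct and lateral wall genes (-0.475). All 6 neuron genes were lower in M+V than in control, with a median of -0.45 and none past the adjusted test. The part of these in the results was not tested. No gene of these lists was listed at 0. In whole cochleae, fewer cells of a type and less RNA per cell cannot be told apart.

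The members varied from array to array within each group. For all 41, the ranges of the groups overlapped in each of the 3 comparisons. The share over all probes is not given here, so the overlap is not a trait particular to the members. The median SD of a member was 0.32 over the 5 arrays at 4 weeks, 0.24 over the 5 controls and 0.44 over the 6 M+V arrays. Members also moved together from array to array: over 16 arrays the correlation was above 0 in 819 of 820 pairs of members, with a median of 0.80 within the mitotic members, 0.79 within the replication members and 0.76 between the 2 kinds. These correlations describe arrays that share groups and normalization, and they are not set beside those of other genes. M+V 4 and control 4 were the highest arrays, with the highest signal of 10 and 12 members, again with no share over all probes beside these counts.

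**Figure D1:**
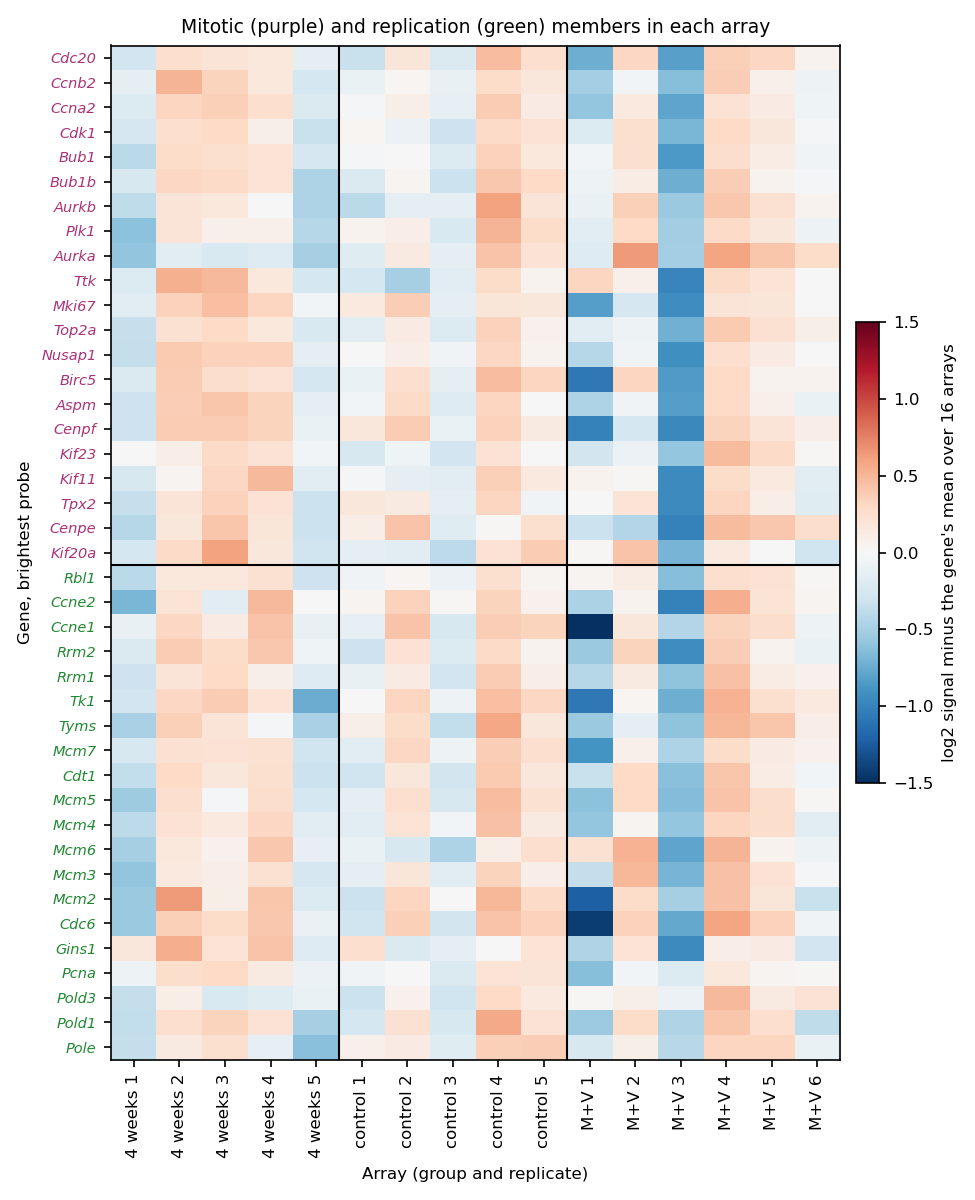
Log2 signal of each of the 41 members (rows, brightest probe) minus its mean over the 16 arrays, for each array (columns, grouped by vertical lines), on a colour scale from -1.5 to 1.5. The column of M+V 3 is low in nearly every row, and that of M+V 1 is lowest in Ccne1, Cdc6 and Mcm2 but above the mean in Ttk and Mcm6.

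Between 4 weeks and control, no member of the 40 that passed the filter was past the adjusted test of limma (adjusted p under 0.05), where 1.38% of all 21391 probes were. The methods' t-test called none either. At an unadjusted p under 0.05 limma found 1 member, where 13.8% of all probes were found, and the methods' t-test also found 1. That member was Aurka, a kinase of the spindle poles, which had signals of 8.11, 8.54, 8.48, 8.50 and 8.21 at 4 weeks and of 8.52, 8.84, 8.56, 9.13 and 8.91 in control. The ranges met only at control 1, which was below 4 weeks 2. In M+V it ran from 8.19 over a median of 9.04 to 9.34, with M+V 1 and 3 inside the 4 weeks range. Its difference between control and 4 weeks was 0.42 in log2 (SE 0.20, adjusted p = 0.352 by limma). The median log2 fold change was 0.02 over the 21 mitotic and 0.09 over the 20 replication members, and -8.1e-04 over all probes. The largest changes in either direction were -0.27 and 0.42.

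Between 4 weeks and M+V, again no member of 40 was past the adjusted test, where 5.28% of all probes were. The methods' t-test called none. Unadjusted, limma found 4 members, where 22.2% of all probes were found, and the methods' t-test found 2. The 4 were Aurka (log2 fold change 0.54, SE 0.19, adjusted p = 0.105), the replication polymerase subunit Pold3 (0.30, SE 0.13, adjusted p = 0.184), Gins1, a subunit of the GINS complex of the replication helicase (-0.44, SE 0.19, adjusted p = 0.181), and Mki67, the proliferation marker Ki-67 (-0.46, SE 0.20, adjusted p = 0.191). Aurka and Gins1 were picked out after their values were seen. The medians were -0.14 for mitotic and -0.07 for replication members, beside 0.00443 over all probes. Without M+V 3, Aurka had 0.68 (adjusted p = 0.0171) and was the 1 member past the test, where 8.23% of all probes were, and without M+V 1 and 3 it had 0.81 (adjusted p = 0.00344), where 9.28% were. These arrays hold the lowest Aurka signals of M+V, so leaving them out had to raise the estimate, and the call is no support for it. These comparisons share the 4 weeks arrays, so they are not independent.

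For M+V against control, the comparison of treatment, limma called 0 of 40 members at an adjusted p under 0.05 and 0% of all probes. Unadjusted it found 0 members, where 9.8% of all probes were found, and the methods' t-test found 0 members by either count. At the study's cutoffs, which ask for more than a 1.5-fold difference with p under 0.05 before adjustment, no member passed, where 1.54% of all probes did by limma and 0.907% by the methods' t-test. The estimates nonetheless lay mostly on one side of 0: 17 of 21 mitotic and 18 of 20 replication members were lower in M+V, beside 47.7% of all probes. The median log2 fold change was -0.15 for mitotic and -0.17 for replication members, and 0.00874 over all probes. Without M+V 3 the medians were 0.00304 and -0.08, with 23 of 41 members below 0. Without M+V 1 they were -0.11 and -0.07, with 33 below 0. Without both they were 0.06 and 0.06, with 4 below 0. The pair was singled out as the arrays lowest in most members, which fixes the direction of that shift.

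**Figure D2:**
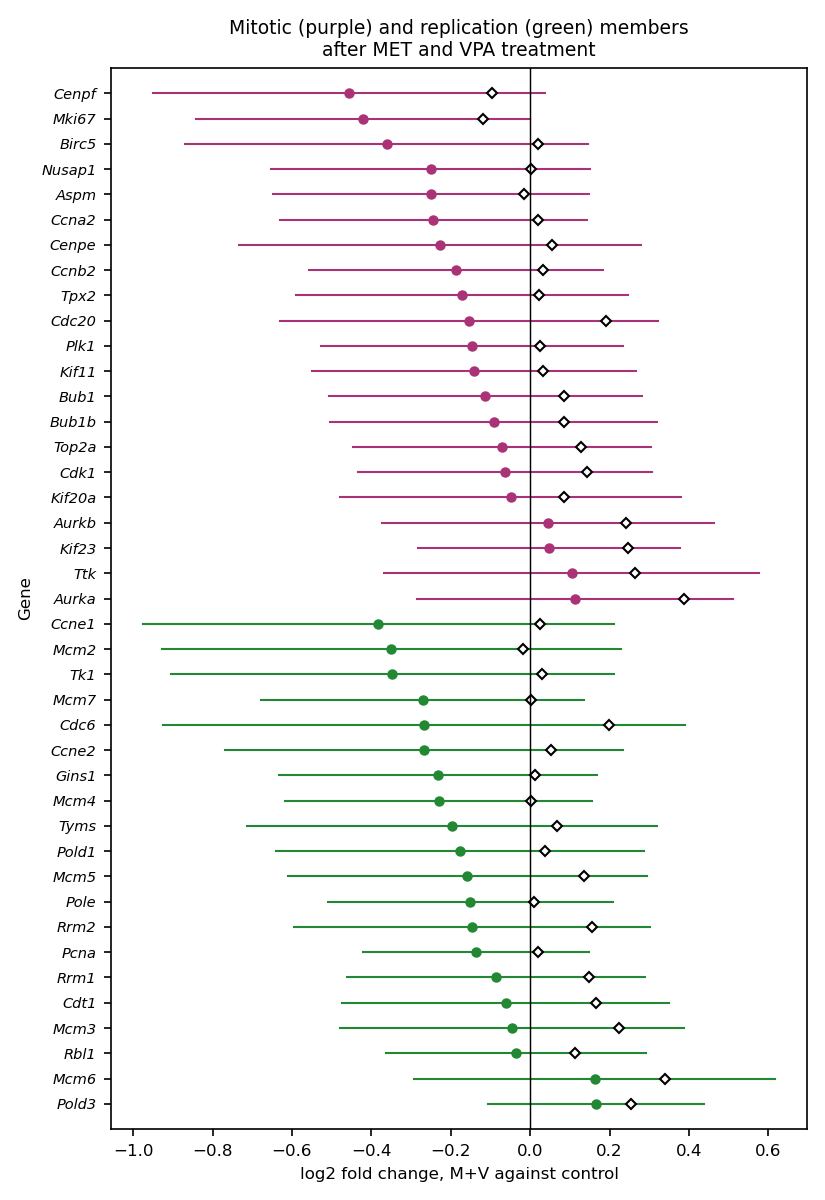
Log2 fold change of each member for M+V against control with its 95% confidence interval from limma (filled circles and lines; 6 and 5 arrays), and the same estimate without M+V 1 and 3 (open diamonds). The filled circles of 35 of 41 members lie below 0, and the diamonds of 4 do.

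Among the mitotic members, the proliferation and chromatin genes were Mki67 and Top2a. Mki67 had signals of 12.63, 13.14, 13.24, 13.12 and 12.75 at 4 weeks, and of 12.94, 13.17, 12.65, 12.98 and 12.97 in control. In M+V its lowest signal was 11.86, its median 12.66 and its highest 12.98. M+V 1, 2 and 3 lay below every control array and the other 3 within the control range. The log2 fold change for M+V against control was -0.42 (SE 0.20, adjusted p = 0.509 by limma), and the exact two-sided permutation test gave p = 0.121 over all arrays and p = 0.457 within the low bioB arrays, 4 against 4, where the difference was -0.29. Such exact tests were run on the brightest probes of 14 members and are unadjusted, and no p among these was under 0.121. Exact tests of other probes are given further below. Top2a, the topoisomerase that untangles sister chromatids, had 11.68, 12.25, 12.32, 12.18 and 11.79 at 4 weeks, 11.84, 12.14, 11.82, 12.36 and 12.08 in control, and 11.30 to 12.41 with a median of 12.03 in M+V. Only M+V 3 was below the control range, and the log2 fold change was -0.07 (SE 0.18), and 0.13 without M+V 1 and 3.

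The 10 mitotic cyclins, kinases and checkpoint genes with a probe had a median log2 fold change of -0.10 for M+V against control. Cdc20, the activator of the anaphase-promoting complex, measured 11.95, 12.49, 12.44, 12.39 and 12.10 at 4 weeks and 11.90, 12.42, 12.03, 12.71 and 12.50 in control. Its M+V arrays ran from 11.42 over a median of 12.42 to 12.60, M+V 1 and 3 being below all other arrays. The log2 fold change was -0.15 (SE 0.23), and 0.19 without that pair. Ccna2, cyclin A2, had 11.08, 11.61, 11.64, 11.54 and 11.07 at 4 weeks, 11.26, 11.37, 11.17, 11.66 and 11.41 in control, and 10.50 to 11.51 with a median of 11.32 in M+V. M+V 1 and 3 were again the lowest of all arrays, and the log2 fold change of -0.24 (SE 0.18, adjusted p = 0.681) became 0.02 without them. Aurka and Aurkb, Plk1 and the checkpoint kinases Bub1, Bub1b and Ttk had log2 fold changes between -0.15 and 0.11.

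The 9 spindle and kinetochore genes had a median of -0.23. Cenpf, a large kinetochore protein, had the most negative estimate of all members, -0.46 (SE 0.23, adjusted p = 0.545). It measured 9.83, 10.52, 10.53, 10.49 and 10.05 at 4 weeks, 10.32, 10.53, 10.05, 10.49 and 10.28 in control, and 9.13 to 10.49 with a median of 10.06 in M+V. M+V 1, 2 and 3 were below the control range, and the estimate was -0.10 without M+V 1 and 3. Cenpe, the kinetochore motor, had 8.52, 9.12, 9.37, 9.13 and 8.63 at 4 weeks, 9.05, 9.37, 8.77, 8.97 and 9.19 in control, and 7.93 to 9.42 with a median of 8.92 in M+V. Its M+V arrays parted into 3 below the control range (M+V 1, 2 and 3) and 3 at its upper end. Aspm, a protein of the spindle poles, had 9.96, 10.64, 10.69, 10.61 and 10.14 at 4 weeks, 10.23, 10.56, 10.08, 10.60 and 10.27 in control, and 9.45 to 10.58 with a median of 10.20 in M+V. The log2 fold change was -0.23 (SE 0.24) for Cenpe, or 0.06 without M+V 1 and 3. For Aspm it was -0.25 (SE 0.19), or -0.0151 without M+V 1 and 3. Its sign did not change in any alternative, but little of its size was left without that pair.

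Among the replication members, the 9 genes of origin licensing and the helicase had a median log2 fold change of -0.23 for M+V against control. Mcm7, a subunit of the helicase, measured 12.77, 13.24, 13.23, 13.24 and 12.71 at 4 weeks and 12.84, 13.32, 12.94, 13.38 and 13.26 in control. In M+V it ran from 12.12 over a median of 13.09 to 13.29, with M+V 1 the lowest and M+V 3 next. The log2 fold change was -0.27 (SE 0.19, adjusted p = 0.669) and 0.00293 without that pair. Among the 4 polymerase and clamp genes, Pcna had 13.78, 14.12, 14.16, 13.99 and 13.77 at 4 weeks, 13.81, 13.85, 13.64, 14.06 and 14.06 in control, and 13.21 to 14.02 with a median of 13.85 in M+V. Only M+V 1 was below the control range, and the log2 fold change was -0.14 (SE 0.13), or 0.02 without M+V 1 and 3. Pold3 had 9.48, 9.94, 9.62, 9.66 and 9.74 at 4 weeks, 9.52, 9.90, 9.55, 10.14 and 9.99 in control, and 9.76 to 10.33 with a median of 9.96 in M+V. No M+V array was below the control range, and the estimate of 0.17 (SE 0.13, adjusted p = 0.691) was the highest of all members.

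The 4 genes of nucleotide supply had a median of -0.17. Rrm2, a subunit of ribonucleotide reductase, had 12.59, 13.19, 13.09, 13.22 and 12.75 at 4 weeks, 12.51, 13.03, 12.61, 13.10 and 12.87 in control, and 11.89 to 13.18 with a median of 12.79 in M+V. M+V 1 and 3 were the lowest of all arrays. Tk1, thymidine kinase, measured 9.65, 10.25, 10.32, 10.15 and 9.20 at 4 weeks, 9.95, 10.27, 9.87, 10.39 and 10.25 in control, and 8.87 to 10.46 with a median of 10.03 in M+V. The log2 fold changes were -0.15 (SE 0.21) for Rrm2 and -0.35 (SE 0.26) for Tk1, or 0.16 and 0.03 without M+V 1 and 3. Tyms, thymidylate synthase, was under the filter on dim probes and was not counted among the members tested.

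Of the 3 G1/S cyclins and pocket proteins, Ccne1, cyclin E1, had 9.13, 9.56, 9.37, 9.68 and 9.14 at 4 weeks, 9.12, 9.67, 9.01, 9.62 and 9.58 in control, and 7.61 to 9.58 with a median of 9.30 in M+V. A single array, M+V 1, lay over 1 log2 unit below the next. The log2 fold change was -0.38 (SE 0.28, adjusted p = 0.675) and 0.02 without M+V 1 and 3. Rbl1, the pocket protein p107, had 10.06, 10.62, 10.63, 10.69 and 10.15 at 4 weeks, 10.41, 10.49, 10.38, 10.71 and 10.51 in control, and 9.82 to 10.71 with a median of 10.54 in M+V. Only M+V 3 was below the control range, and the log2 fold change was -0.04 (SE 0.16), or 0.11 without M+V 1 and 3.

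The 2 low M+V arrays were low in different ways. M+V 3 was below the mean of the 5 controls in all 41 members, by a median of -0.75, and below the control range in 39, all 21 mitotic and 18 of 20 replication members, with Pcna and Pold3 the exceptions. Its median difference from the control mean was -0.87 for mitotic and -0.69 for replication members. M+V 1 was below the control range in 27 members, 10 of 21 mitotic and 17 of 20 replication members, with medians of -0.28 and -0.64. M+V 1 thus lay below the controls chiefly in replication members. As 1 array of 1 mouse, its pattern was not tested. For neither array is the share over all probes below the control range given. Whether these counts are particular to the members therefore cannot be said.

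Within M+V 1 the members spread widely. The SD over the 41 differences from the control mean was 0.49, beside 0.23 in M+V 3 and 0.09 to 0.25 in the other 14 arrays. Lowest were Ccne1 (-1.80), the origin licensing factor Cdc6 (-1.53), Mcm2 (-1.38), Tk1 (-1.27), the survivin gene Birc5 (-1.24), Cenpf (-1.20) and Mcm7 (-1.03). The checkpoint kinases Bub1 and Bub1b were at -0.10 and -0.12, and the spindle motors Kif11 and Kif20a at 0.02 and 0.04. Ttk (0.44) and Mcm6 (0.32) lay above the control mean. These values are of the brightest probe of each gene, and other probes of a gene could differ. The next brightest probe of Mcm6 was at -0.58 and that of Mcm2 at -0.64, so the Mcm genes do not part by these probes, whereas the other tested probe of Ccne1 was at -1.81.

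**Figure D3:**
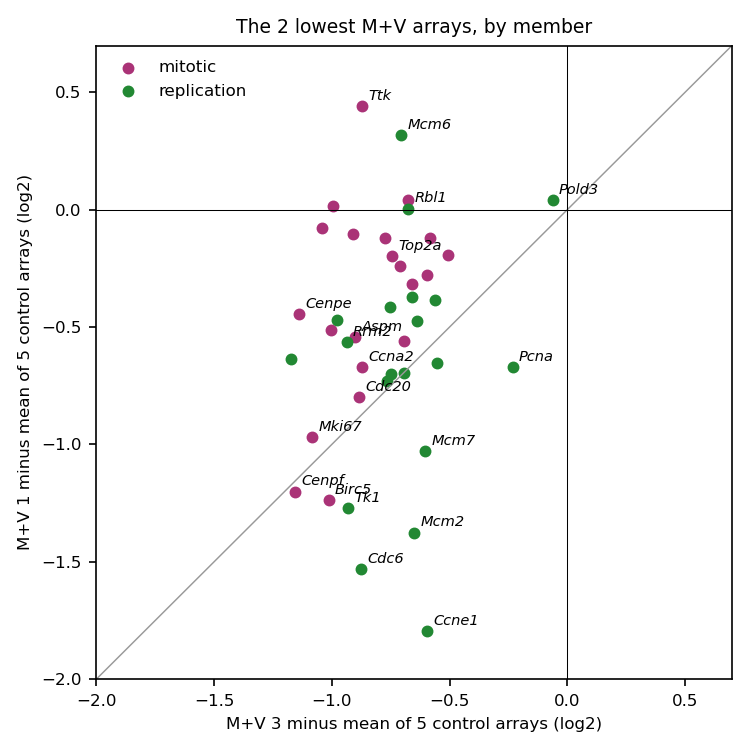
Difference of M+V 1 (vertical axis) and of M+V 3 (horizontal axis) from the mean of the 5 control arrays, in log2 units, for each of the 41 members (purple mitotic, green replication), with the line of equality. The points span -1.80 to 0.44 on the vertical axis and -1.17 to -0.06 on the horizontal one, and 9 of 41, 7 of them replication members, lie below the line.

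Marrow content was read from 3 lists of precursor markers, as the mean log2 signal of a list with each gene centred on its mean over 16 arrays. Scores of the 41 members were made likewise. The mitotic score ran from -0.79 in M+V 3 to 0.34 in control 4 and the replication score from -0.61 to 0.39, with group means of 0.04, 0.06 and -0.09 (SD 0.29, 0.20 and 0.41) for the mitotic score at 4 weeks, in control and in M+V, and of 0.01, 0.08 and -0.08 (SD 0.30, 0.23 and 0.43) for the replication score. The erythroid score was -5.23 in M+V 1 and -0.23 to 0.74 elsewhere, where M+V 3 was the lowest. The B cell score was -2.27 in M+V 1, -0.59 in M+V 3 and -0.41 to 0.59 elsewhere. The neutrophil score was -0.94 to -0.16 at 4 weeks, -0.09 to 0.34 in control, 0.54 in M+V 1 and -0.30 in M+V 3. M+V 1 thus had the lowest erythroid and B cell scores and the highest neutrophil score, while its mitotic score of -0.32 was close to the -0.30 of 4 weeks 1.

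**Figure D4:**
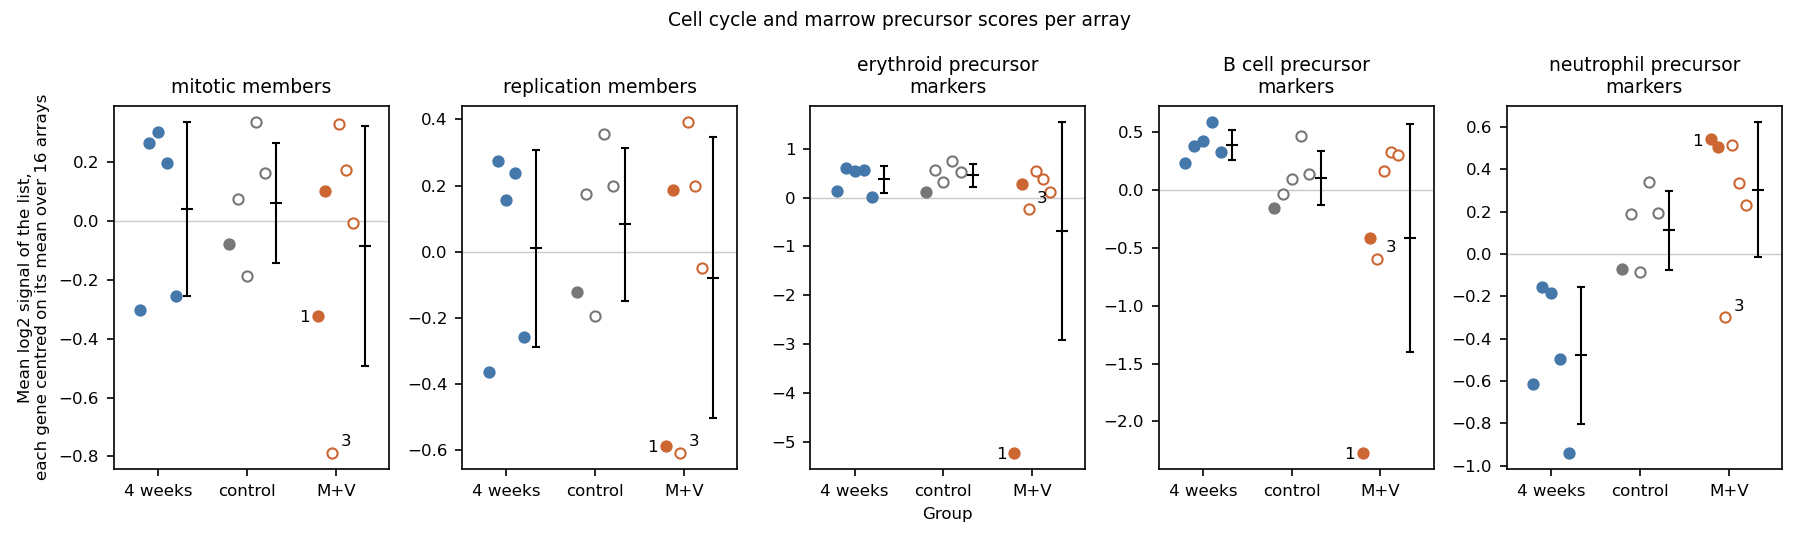
Scores of the mitotic and replication members and of the erythroid, B cell and neutrophil precursor markers (vertical axes, log2, centred on the mean over 16 arrays, with a scale of their own) for each array by group. Filled points are arrays with high and open points arrays with low bioB, bars are the mean and SD, and M+V 1 and 3 are numbered; M+V 1 is at -5.23 in the erythroid panel and M+V 3 at -0.79 in the mitotic one.

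Since M+V 1 lies apart, relations with the marrow scores were computed over the other 15 arrays, 123 in all for 41 members and 3 lists. With the erythroid score, Pearson's r had a median of 0.83 over the mitotic members (0.50 to 0.91) and 0.85 over the replication members (0.41 to 0.94). The medians were 0.69 and 0.71 without the 2 arrays farthest from the median score (4 weeks 5 and M+V 3), 0.79 and 0.84 within the 7 remaining high bioB arrays, and 0.89 and 0.89 within the 8 low ones. The neutrophil score gave 0.42 and 0.60 over 15 arrays, or 0.32 and 0.46 without its 2 farthest arrays (4 weeks 5 and M+V 4). Its medians were 0.51 and 0.49 within the high bioB arrays and 0.89 and 0.90 within the low ones. With group means removed from score and member, the medians were 0.88 and 0.84 for the neutrophil score. They were then 0.88 and 0.90 for the erythroid score and 0.64 and 0.57 for the B cell score. The B cell score gave 0.60 and 0.45, or 0.39 and 0.32 without its 2 farthest arrays (M+V 2 and M+V 3). Within the high bioB arrays the B cell score gave 0.24 and 0.12, and within the low ones 0.83 and 0.78. These relations are not set beside those of other genes. The lists share RNA, array and normalization with the members, and the part of marrow content in any member's difference was not tested.

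For single members, Mcm7 had the highest r with the erythroid score (r = 0.94, permutation p = 1e-05, the smallest that 100000 resamples can give; rho = 0.92, p = 1e-05; adjusted p = 2.05e-04 and 4.1e-04 over the 123 relations), with r = 0.89 without the 2 farthest arrays, 0.97 in the high and 0.94 in the low bioB arrays. Mki67 had a lower value (r = 0.80, permutation p = 3.0e-04, adjusted p = 0.00142; rho = 0.80, p = 5.3e-04, adjusted p = 0.00407), with r = 0.67 without those arrays and 0.74 and 0.88 by bioB level. Aurka had its highest r with the neutrophil score (r = 0.93, permutation p = 1e-05, adjusted p = 2.05e-04; rho = 0.96, p = 1e-05, adjusted p = 4.1e-04), with r = 0.94 without 4 weeks 5 and M+V 4, 0.90 in the high and 0.99 in the low bioB arrays. Its r with the erythroid score was 0.50 (permutation p = 0.057, adjusted p = 0.0835; rho = 0.38, p = 0.17, adjusted p = 0.225). With group means removed, these differences between lists were small: Aurka had r = 0.88 with both scores, and Mki67 had 0.79 with the erythroid and 0.78 with the neutrophil score. No difference between lists was tested. The permutations exchanged arrays without regard to group or bioB level, so their p-values also hold differences between groups. Of the 10 neutrophil precursor markers, 2 passed the adjusted test of limma for control against 4 weeks, where 1.38% of all probes did, and 6 for M+V against 4 weeks, where 5.28% did. All of these were higher than at 4 weeks.

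With the neutrophil score as a covariate in the fit, the comparisons with 4 weeks changed. All 41 members were then below 0 in both, with medians of -0.52 (mitotic) and -0.36 (replication) for control and of -0.90 and -0.68 for M+V. Ttk and Kif20a, 2 members, passed the adjusted test for control, where 0.57% of all probes did. In M+V 7 members passed, where 0.986% of all probes did: Ttk, Kif20a, Bub1, Bub1b, Tpx2, Aspm and Ccnb2. These are mitotic members, and mitotic against replication members was not tested. Their log2 fold changes for M+V lay between -0.86 and -1.13. The neutrophil scores of the 4 weeks and control arrays did not overlap, and of the M+V arrays only M+V 3 lay in the 4 weeks range, so age and score cannot be told apart here. With the osteoblast and cartilage score, 0.71 to 0.84 at 4 weeks and below 0 in the other 11 arrays, the medians turned to 0.38 and 0.55 for control and 0.26 and 0.46 for M+V, and no member passed. For M+V against control no covariate brought a member past the adjusted test.

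Of the 97 probes of the members, 56 stand beside the brightest, and 29 of these passed the filter. For M+V against control, limma called 0 of the 29 after adjustment, 3 passed unadjusted, where 9.8% of all probes did, and the same number met the study's cutoffs, where 1.54% did. The unadjusted share is near that of all probes. They belong to Pold3, Cenpe and Aspm, which the study lists with Rbl1 for this comparison, so that they are no independent evidence. The dimmest of the 3 Pold3 probes ran from 7.18 to 8.14 in control and from 8.29 to 9.01 in M+V, with no overlap, and from 7.42 to 8.64 at 4 weeks. Its log2 fold change was 0.88 (SE 0.21, adjusted p = 0.365 by limma). The exact permutation p was 0.00216, the smallest that 6 against 5 arrays can give. Within the low bioB arrays, where the difference was 0.93, it was 0.0286, again the smallest. Exact tests were run on 10 other probes of the 4 genes in the study's lists. Adjusted over these 10, the exact p of this Pold3 probe was 0.02165, and the next lowest was 0.0649. The 4 genes were taken from lists made from these same arrays, so a low exact p is no support. By qRT-PCR, the study examined Pold3 with other genes and reported Zip4 and Hspa1b as significantly higher in M+V than in control. The 2 other Pold3 probes had 0.17 and -0.11. Rbl1 has 3 other probes beside the brightest one, which had -0.04. All 3 were under the filter on dim probes, and they had -1.11 (the probe in the study's list), 0.11 and 0.56. The last had mean signals of only 3.19 in control and 3.75 in M+V. The dimmer Cenpe probe had -0.78 (SE 0.29) against -0.23. The next brightest Aspm probe had -0.60 (SE 0.18) against -0.25. It was the only probe of a member past the adjusted test in any comparison, with -0.77 for M+V against 4 weeks (SE 0.18, adjusted p = 0.0241 by limma). That is 1 of the 29 dimmer probes tested, where 5.28% of all probes were called in that comparison. Probes of 1 gene thus gave different sizes, and for Pold3 and Rbl1 different signs, where the other Rbl1 probes were under the filter.

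**Figure D5:**
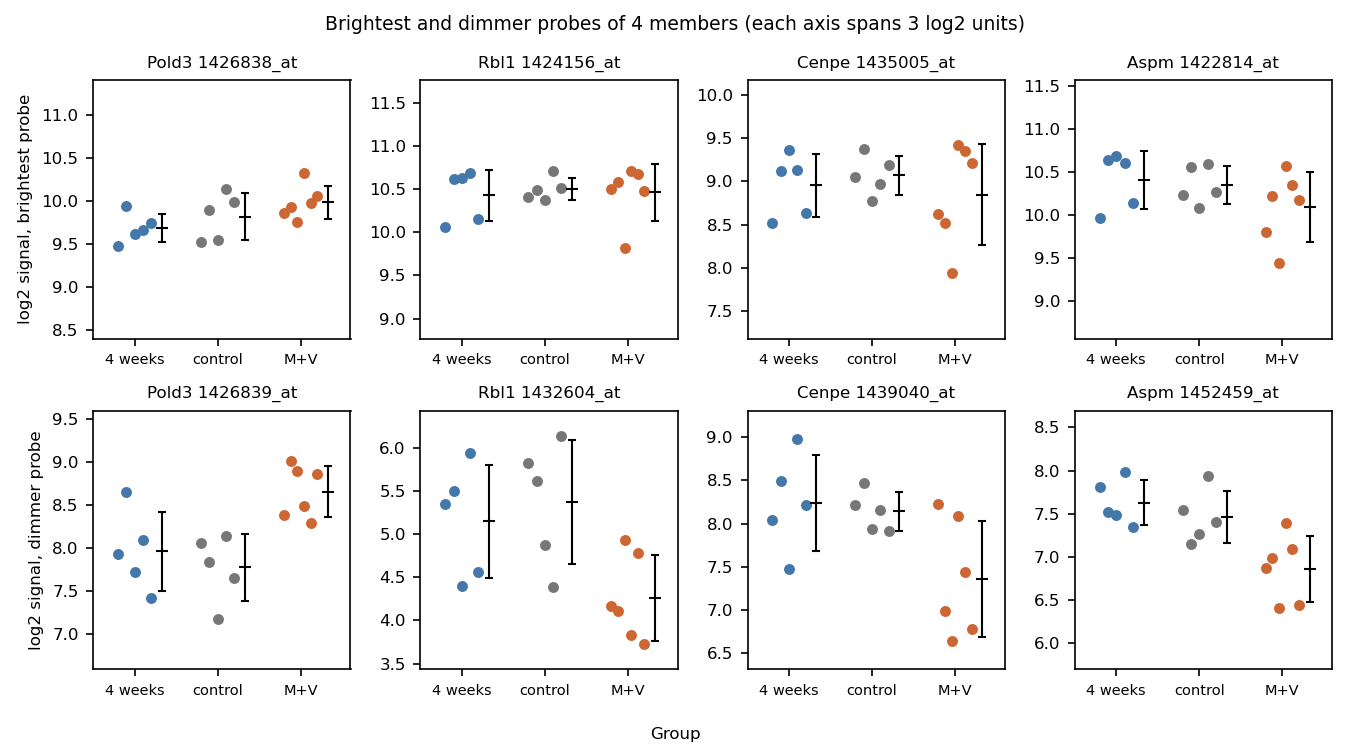
Log2 signal per array by group for the brightest probe (upper row) and a dimmer probe (lower row) of Pold3, Rbl1, Cenpe and Aspm, with the mean and SD as bars; each vertical axis spans 3 log2 units. In the lower row the 6 M+V arrays of Pold3 (8.29 to 9.01) lie above the 5 control arrays (7.18 to 8.14), and in the upper row the groups overlap.

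Other genes of the same pathways behaved much like the members. Of 32 other mitotic genes tested none passed the adjusted test of limma in any comparison, and of 32 other replication genes none did. Their median log2 fold changes for M+V against control were -0.11 and -0.14, with 27 of 34 and 28 of 33 below 0. In these lists the largest moderated t for that comparison belonged to Anln, the contractile ring protein anillin (-0.31, SE 0.15, adjusted p = 0.510), and to Rfc1, the large subunit of the clamp loader (-0.15, SE 0.08, adjusted p = 0.552). Foxm1, a transcription factor of mitotic genes, had 0.39 for control (SE 0.13, adjusted p = 0.168) and 0.38 for M+V (SE 0.12, adjusted p = 0.0756) against 4 weeks.

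Among the brightest probes of the 3 pathway lists, calls were found in the genes of G1 control alone. Of 13 G1 cyclins, kinases, inhibitors and Rb family genes tested, 2 were called lower in control than at 4 weeks and none higher, where 1.38% of all probes were called in either direction. Ccnd2, cyclin D2, had signals of 11.44, 11.59, 11.62, 11.57 and 11.59 at 4 weeks, of 10.84, 10.80, 11.30, 11.37 and 10.96 in control, and of 11.27 to 11.57 in M+V. Cdkn1a, the cell cycle inhibitor p21, had 11.53, 10.88, 11.05, 10.86 and 11.59 at 4 weeks, 10.45, 10.63, 10.50, 10.25 and 10.41 in control, and 10.29 to 11.12 in M+V. Control lay wholly below 4 weeks for both, but the genes were named because they passed this test, so the gap adds no support. The comparison also holds the bioB split, and no fit with the bioB level as a block is given for these 2 genes. By limma, Ccnd2 fell by 0.51 in log2 units (SE 0.11; adjusted p = 0.0295) and Cdkn1a fell by 0.73 (SE 0.17; adjusted p = 0.0430). None of the 13 passed between 4 weeks and M+V. Cdkn1a had -0.50 (SE 0.16, adjusted p = 0.0844). Between M+V and control Ccnd2 had 0.39 (SE 0.11, adjusted p = 0.381), and no other gene of this list passed even unadjusted.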

How the data were processed

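RNA of 16 whole left cochleae, 1 mouse each, was hybridised to Affymetrix GeneChip mouse genome arrays. The authors deposited log2 values, made from MAS5 signals of GCOS by quantile normalization. The sorted values are identical in all 16 arrays, so depth does not apply and the number of arrays limits the precision. Signals under 1 were set to 1 (0.869% of values). Tests were run on the 21391 of 45101 probes whose signal was at or over the median of the array throughout 1 or more groups. This filter stands in for present calls, which were not used here. Of the probes, 34945 have 1 gene symbol in the platform annotation, 932 have several and 9160 have none. limma 3.58.1 in R 4.3.3 was fitted with 1 mean per group, with Benjamini-Hochberg adjustment over all 21391 probes. The methods' t-test, other normalizations, filters, probe choices, covariates and left-out arrays were alternatives. Exact permutation tests were two-sided. Values per array are given for the 4 members in the study's gene lists, the 3 mitotic and 3 replication members with the highest mean signal, and the member with the largest moderated t for M+V against control in each role. No member passed the test or the study's cutoffs, which would also have named it. The members and all lists were chosen with earlier results of these data known. Groups follow the labels.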

Additional observations from a re-analysis of the deposited data

Results flagged for a closer look

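Among 138 groups tested for a sample far from the others, 7 had one, all in M+V. Chance gives about 1 in 20 such groups. In M+V 3, the signal was 9.68 for the checkpoint kinase Bub1 (nearest M+V array 10.49), 7.57 for the kinase Ttk (nearest 8.56), 8.57 for the spindle motor Kif11 (nearest 9.36) and 9.82 for Rbl1 (nearest 10.48). The neutrophil precursor score of M+V 3 was -0.30, with the nearest at 0.23. In M+V 1, the erythroid precursor score was -5.23 (nearest -0.23) and the B cell precursor score -2.27 (nearest -0.59).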

How the results depend on the processing

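For M+V against control, no member passed the adjusted test in any alternative. Cenpf passed the study's cutoffs with the neutrophil precursor covariate (1 member), as did Cenpf and Rrm1 with the mean of all probes of a gene (2 members). The share of all probes at these cutoffs in these 2 fits is not given here. Of the 3 Rrm1 probes, 1 under the filter on dim probes lay at -4.07 from the control mean in M+V 1, and the brightest at -0.47. For M+V against 4 weeks, 1 member (Aurka) passed with array weights, with the erythroid or B cell precursor covariate, and without M+V 1 and 3 together, an alternative added after seeing the data. With the neutrophil precursor covariate 7 passed, and 2 for control against 4 weeks. With all 3 marrow covariates 6 and 1 did. In these fits of the comparisons with 4 weeks, 0.57% to 11.6% of all probes passed the adjusted test. The mitotic and replication medians for control against 4 weeks were -0.52 and -0.36 with the neutrophil, -0.39 and -0.29 with the 3 marrow, and 0.38 and 0.55 with the osteoblast and cartilage covariate. Those for M+V against 4 weeks were -0.90 and -0.68, -0.65 and -0.43, and 0.26 and 0.46. The cause of these shifts was not tested.

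Leaving out 1 array at a time gave 0 to 1 members past the test for M+V against 4 weeks, the 1 without M+V 3, and 0 for the other comparisons. The medians for M+V against control then ran from -0.22 to 0.00304 (mitotic) and from -0.26 to -0.07 (replication). The sign of the M+V against control estimate turned for these members. With array weights Rbl1 was 0.0457, Cenpe 0.0513, Cdc20 0.00916 and Top2a 0.0622. In high bioB arrays alone, where control 1 is the only control array beside M+V 1 and 2, Rbl1 was 0.13, Cdc20 0.13, Top2a 0.0509 and Rrm2 0.20. With the erythroid covariate Cdc20 was 0.0526, Top2a 0.00323, Pcna 0.0135 and Rrm2 0.00521. With the B cell covariate Rbl1 was 0.0233, Cdc20 0.0783, Top2a 0.0461, Pcna 0.0156 and Rrm2 0.0204. Leaving out 1 array at a time gave ranges of -0.0851 to 0.0925 for Rbl1 (above 0 without M+V 3 or control 4), -0.16 to 0.0636 for Top2a (the same arrays) and -0.25 to 0.0120 for Rrm2 (M+V 3). Without M+V 1 and 3, Rbl1 was 0.11, Cenpe 0.0552, Cdc20 0.19, Top2a 0.13, Pcna 0.0205, Mcm7 0.00293, Rrm2 0.16, Ccne1 0.0244, Ccna2 0.0205 and Tk1 0.0303.

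The replicate numbers did not pair the arrays: the median correlation of 15 same-numbered pairs was 0.0126, and 6 were over 0.1. With the replicate block, 0 members passed in each comparison, and the medians for M+V against control were -0.13 and -0.17. Few arrays and the wide spread of M+V limit what these comparisons can show.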
